A study of Mus musculus with 6 samples.

Results

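Replacement histone variants are histones made from mRNAs that are produced outside DNA synthesis, and 10 of the 21958 genes of the count table encode them: H3f3a, H3f3b, H2afz, H2afv, H2afx, H2afj, H2afy, H2afy2, H1f0 and H1fx. They were chosen by gene symbol, as the variants of H3, H2A and H1 that somatic cells use. Earlier results of these data were known when they were chosen, so the members were not tested as a set. The data come from synaptoneurosomes, a filtered and centrifuged fraction enriched in pinched-off pre- and postsynaptic compartments, made from hippocampus and adjacent cortex of FVB mice aged 6 to 8 weeks. RNA of 3 libraries was taken from polyribosomes after a 30 s pulse of 50 µM NMDA with 10 µM glutamate, then 120 µM APV (an NMDA receptor antagonist) and 20 min of incubation, and RNA of the other 3 was the total RNA of unstimulated synaptoneurosomes. The mice carried no stated genetic change, and the brains of several were pooled into a preparation that was then split into equal aliquots. Per the methods, stimulated aliquots were warmed to 37°C, unstimulated ones stayed on ice with cycloheximide, an inhibitor of translation elongation, and the lysis buffer for polyribosomes held cycloheximide too. Since stimulation, handling and the polyribosomal fraction came together, their shares in any difference cannot be told apart.

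Most of the histone in a dividing cell comes from clustered genes that are active while DNA is copied and whose mRNAs end in a stem-loop without a poly(A) tail. Replacement variants come from single genes whose mRNAs are as a rule polyadenylated, and in neurons, which no longer divide, H3.3 is the main source of new H3. H3.3 is deposited by the HIRA complex and by DAXX with ATRX, H2A.Z is exchanged by the SRCAP and EP400 complexes, macroH2A carries a large additional domain and is associated with silent chromatin, H2A.X is phosphorylated beside DNA breaks, and the linker histones H1.0 and H1X bind where DNA enters and leaves the nucleosome.

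The genes fall into related couples, and the sequences of 2 couples are shown because they explain how counts of near-identical proteins could be kept apart. H3f3a and H3f3b both encode H3.3, and their coding sequences of 408 bases differed at 95 bases (76.7% identical) but at 0 of 136 encoded residues. H2afz and H2afv encode the H2A.Z proteins Z.1 and Z.2, and differed at 80 of 384 coding bases (79.2% identical) and at 3 of 128 residues. The first 90 coding bases of each, from the Gencode vM21 transcripts, follow with the bases that differ within the couple in capitals, 20 for the H3.3 genes and 19 for the H2A.Z genes.
H3f3a: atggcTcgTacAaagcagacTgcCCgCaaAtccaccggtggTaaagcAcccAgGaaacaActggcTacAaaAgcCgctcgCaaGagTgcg
H3f3b: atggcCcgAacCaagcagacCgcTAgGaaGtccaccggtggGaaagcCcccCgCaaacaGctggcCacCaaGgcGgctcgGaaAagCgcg
H2afz: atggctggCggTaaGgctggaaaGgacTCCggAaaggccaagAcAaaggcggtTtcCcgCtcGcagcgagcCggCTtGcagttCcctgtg
H2afv: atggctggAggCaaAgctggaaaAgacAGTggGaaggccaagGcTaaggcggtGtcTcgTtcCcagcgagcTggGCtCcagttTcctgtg
In the H3.3 couple, the differences in this stretch changed no residue.

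One member also carries the mark of the replication-dependent class. The consensus of the histone mRNA stem-loop, 16 bases long, was searched on the transcript strand of the annotated transcripts, and among the 10 genes only H2afx held it, 50 bases after its last coding base. In the 26 bases shown, the match is in capitals (GRCm38, chr9:44335240-44335255, plus strand).
H2afx: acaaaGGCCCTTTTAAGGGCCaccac
Of all 21728 genes with a model, 64 held the consensus (0.295%), and of the 66 replication-dependent histone genes with a model, 44 did (66.7%). A match is a description of the letters, and no match says only that these letters are not in the annotated transcript.

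The 10 genes were spread over 8 chromosomes in GRCm38. H2afx (9:44334694-44336077), H2afj (6:136808244-136810070), H1f0 (15:79028212-79030498) and H1fx (6:87980421-87981637) each consist of a single exon. H3f3a (1:180800832-180813943) has 4 exons, H2afz (3:137864487-137866922) and H2afv (11:6427229-6444443) have 5, H3f3b (11:116021912-116027962) has 6, and H2afy (13:56073619-56136361) and H2afy2 (10:61738665-61784147) have 9. The GC content of the transcripts ranged from 43.2% in H3f3a and 43.4% in H3f3b to 62.3% in H2afx and 71.3% in H1fx. All but H3f3b, H2afz and H2afv overlap another annotated gene, on the opposite strand in each of these 7, so that part of their counts is uncertain if strand was not used. The methods describe libraries that keep the strand, made by a changed protocol of a kit that the labels name and that does not mark strand by itself.

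The count table holds protein-coding genes only, and library totals are sums over it. They were 7361580, 6856562 and 5294482 counts for the polyribosome libraries 1 to 3 and 3738022, 2907817 and 1044955 counts for the total RNA libraries. These genes thus had fewer counts in total RNA. Replicates within a group differed by more than sampling noise. Same-numbered libraries deviated together, and a fit with the preparation as a block was therefore set beside the unpaired fit wherever it changed a call. All marker lists of brain cell types had counts, with neuronal and synaptic markers at a summed 8097 to 10681 counts per 1000000 counts of the TMM-scaled library (CPM) on polyribosomes and 7394 to 9187 CPM in total RNA.

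All 10 variants had a higher fitted level on polyribosomes than in total RNA, by a median log2 difference of 0.54, where the median over the 12255 genes tested was 0.00 and 6135 of them were positive. H2afj rose 2.45-fold and was the only member past the threshold of an adjusted p of 0.01 in edgeR's unpaired quasi-likelihood test. That is 1 of 10, beside 0.710% of all genes tested called higher and 2.36% called lower. No member was called lower by edgeR or DESeq2, and at an unadjusted p under 0.05 there were 8 higher and 0 lower, beside 15.4% of all genes tested higher and 17.1% lower. With the preparation as a block, 8 of 10 passed, all higher, beside 11.8% of all genes called higher and 13.2% called lower in that fit. H2afx and H2afy2 were the exceptions. Leaving out 1 pair from that fit left 4 called without pair 1, 2 without pair 2 and 6 without pair 3, with H2afj and H1fx called each time. Of all genes tested, 627 of 12176, 518 of 12365 and 1470 of 12539 were called higher in those fits, and 910, 682 and 1602 lower. With the block and an offset for transcript GC and length 5 were called, namely both H3.3 genes, both H2A.Z genes and H2afj. That fit called 1142 of 12255 genes higher and 860 lower. In 6 of 10 members every polyribosome library exceeded every total RNA library, beside 17.4% of all genes (18.9% in the opposite direction), and 9 of 10 were higher in all 3 same-numbered pairs, beside 30.2% of all genes.

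**Figure D1:**
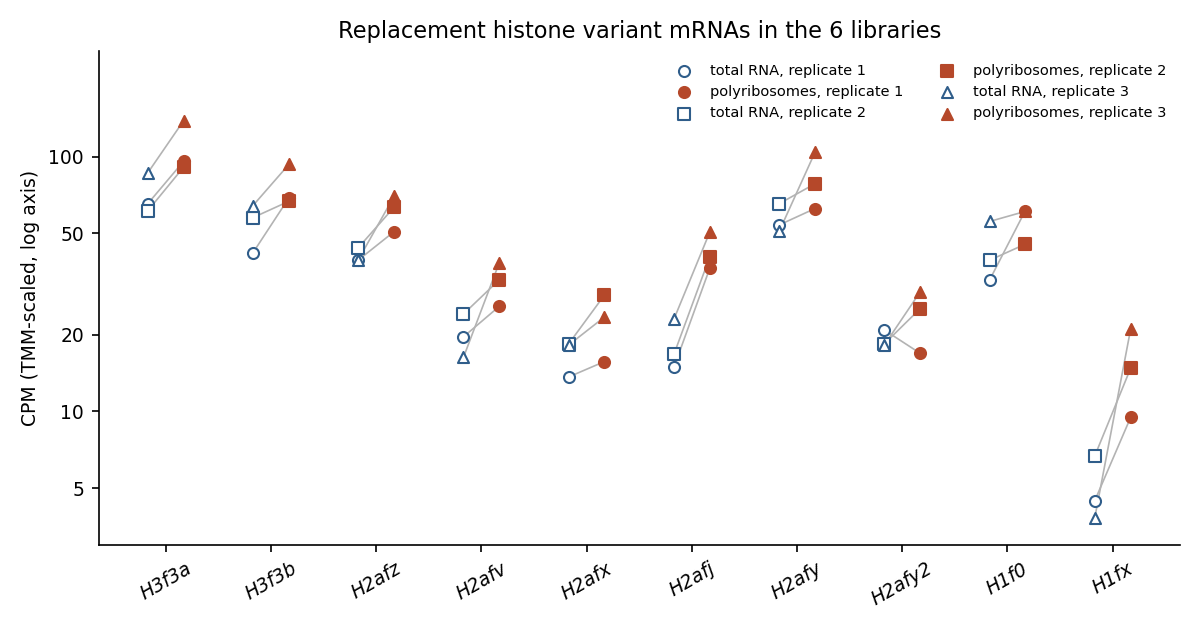
Level of each replacement variant mRNA in each library, in CPM on a log axis. Open blue symbols are total RNA, filled red symbols are polyribosomes, the symbol shape gives the replicate number and grey lines join libraries of the same number. For H2afj and H1fx the groups stand clearly apart, and of 30 lines 29 go up, the exception being replicate 1 of H2afy2.

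The H2A variants that stand closest to canonical H2A behaved unequally. H2afj, which encodes an H2A variant that differs from canonical H2A mainly near its C-terminal end, was at 36.4, 40.4 and 50.4 CPM on polyribosomes and at 14.9, 16.8 and 23.0 CPM in total RNA. The groups did not overlap, and the lowest polyribosome library lay well above the highest total RNA library. The log2 difference was 1.29 (SE 0.21, adjusted p = 0.00313 in edgeR), and within the 3 pairs it was 1.26, 1.24 and 1.12 (1.21 ± 0.080 SD, n = 3). The size changed little when a library was left out (1.14 to 1.42), but the call was lost without polyribosome replicate 2 (adjusted p = 0.0123), total RNA replicate 1 (0.0308) or total RNA replicate 2 (0.0289), as edgeR gave them. Those fits called 11 of 12310, 2 of 12714 and 0 of 12743 genes tested higher, beside 87 of 12255 with all libraries. H2afj ranked at place 59 of 12255 by log2 difference.

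H2afx encodes the variant whose phosphorylated form marks DNA breaks, and is the member with the stem-loop printed above. It was at 15.7, 28.6 and 23.5 CPM on polyribosomes and at 13.7, 18.4 and 18.2 CPM in total RNA, and the groups overlapped because polyribosome replicate 1 lay below 2 of the total RNA libraries. The log2 difference was 0.46 (SE 0.25, adjusted p = 0.210 in edgeR), and 0.42 with the block (adjusted p = 0.0525). It turned to -0.17 when the fit was given an offset for transcript GC and length, with or without the block. The within-library log2 ratio of H2afj to H2afx, which needs no scaling between libraries, was 1.21, 0.50 and 1.10 on polyribosomes and 0.12, -0.14 and 0.33 in total RNA. The ratio in every polyribosome library thus lay above that in every total RNA library. The difference of the means was 0.83, seen in 3 of 3 pairs (mean of pairs 0.83 ± 0.23 SD, n = 3), with a two-sided exact permutation p of 0.1, which is the smallest that 3 against 3 libraries allow (0.5 after Benjamini-Hochberg adjustment over the 5 couples compared).

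Both H3.3 genes were higher on polyribosomes, to about the same degree. H3f3a was at 95.8, 90.8 and 138 CPM on polyribosomes and at 65.3, 61.3 and 86.3 CPM in total RNA. H3f3b was at 68.7, 66.7 and 93.1 CPM on polyribosomes and at 42.0, 57.6 and 64.3 CPM in total RNA. In neither gene did the groups overlap, although replicate 3 was high in both groups and its total RNA library came close to the lowest polyribosome libraries. The log2 difference was 0.63 for H3f3a (SE 0.20, adjusted p = 0.0451 in edgeR, 8.55e-05 with the block) and 0.51 for H3f3b (SE 0.20, adjusted p = 0.0931, 0.00205 with the block). Their log2 ratio within a library was 0.48, 0.44 and 0.57 on polyribosomes and 0.64, 0.09 and 0.42 in total RNA. The ratio of these 2 sources of the same protein differed by 0.11 between the groups, less than its spread (0.11 ± 0.26 SD over 3 pairs, exact permutation p = 0.7). Both transcripts lie in the fifth of genes with the lowest GC content, whose median log2 difference was -0.36, and the offset for GC content and length raised H3f3a to 0.99 and H3f3b to 0.81.

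Both H2A.Z genes were higher on polyribosomes in every library, by differences close in size to those of the H3.3 genes. H2afz was at 50.7, 63.3 and 69.8 CPM on polyribosomes and at a narrow 39.2, 43.9 and 39.3 CPM in total RNA. H2afv was at 25.8, 32.8 and 38.3 CPM on polyribosomes and at 19.6, 24.1 and 16.3 CPM in total RNA. The groups overlapped in neither. The log2 difference was 0.58 for H2afz (SE 0.18, adjusted p = 0.0424 in edgeR, 0.00110 with the block) and 0.64 for H2afv (SE 0.21, adjusted p = 0.0522, 0.00311 with the block). For H2afv the 3 pairs gave 0.39, 0.44 and 1.21, so the third preparation, with 17 counts in its total RNA library, contributed most. The ratio of H2afz to H2afv within a library differed by -0.11 (-0.11 ± 0.24 SD over 3 pairs, exact permutation p = 0.5). Of the 100-base windows of the H2afz transcript, 58.8% were also present in transcripts of 4 genes elsewhere, so how its reads were assigned is less certain than for H2afv, which shared 0 windows. The shared part was 7.7% for H3f3a, 2.4% for H3f3b and 1.4% for H2afx.

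The macroH2A genes did not differ in size of change beyond the spread over pairs. H2afy2 had the smallest difference of the 10 members in the unpaired fit. H2afy, which encodes macroH2A1, was at 62.5, 78.2 and 104 CPM on polyribosomes and at 53.9, 65.3 and 50.8 CPM in total RNA. H2afy2, which encodes macroH2A2, was at 16.9, 25.3 and 29.4 CPM on polyribosomes and at 20.9, 18.4 and 18.2 CPM in total RNA. Both overlapped between the groups, and H2afy2 in replicate 1 was the one value of 30 that was lower on polyribosomes (-0.29 in that pair, against 0.45 and 0.68 in the others). The log2 difference was 0.51 for H2afy (SE 0.20, adjusted p = 0.0956 in edgeR, 0.00673 with the block) and 0.29 for H2afy2 (SE 0.23, adjusted p = 0.403, 0.408 with the block). The blocked value of H2afy, 0.43, was 0.22 with the offset (adjusted p = 0.179 in edgeR) and 0.23 without pair 3 (adjusted p = 0.121). The difference of the H2afy to H2afy2 ratio was 0.23 (0.23 ± 0.37 SD over 3 pairs, exact permutation p = 0.3). H2afy2 overlaps 596 bases of Aifm2, a protein-coding gene on the opposite strand, and use of the strand in counting is not stated.

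The linker histone variants had fitted differences of unlike size, but the gap between them varied widely among the pairs. H1f0, the linker histone of differentiated cells, was at 61.4, 45.3 and 60.9 CPM on polyribosomes and at 32.8, 39.2 and 55.6 CPM in total RNA, with overlapping groups. Its log2 difference was 0.45 (SE 0.21, adjusted p = 0.149 in edgeR, 0.00681 with the block), and 0.90 in pair 1 against 0.21 and 0.13 in pairs 2 and 3. The blocked value was 0.46, and 0.16 without pair 1 (adjusted p = 0.602 in edgeR), and with the offset it was 0.33 (adjusted p = 0.0492). H1fx was the least counted member, with 70, 98 and 102 counts on polyribosomes and 18, 20 and 4 counts in total RNA, that is 9.47, 14.8 and 21.0 CPM against 4.47, 6.70 and 3.84 CPM. Its groups did not overlap. The log2 difference of 1.50 (SE 0.34) was the largest among the members in the unpaired fit and ranked at place 31 of 12255. Within the 3 pairs it was 1.00, 1.08 and 2.31, the last with the 4 counts in total RNA. In the block fit without pair 3 the value was 1.10, below the 1.27 of H2afj. With all libraries, the adjusted p of H1fx was 0.0123 in edgeR's unpaired test, 0.00377 in DESeq2 and 4.53e-06 in edgeR with the block. With the GC and length offset the value was 0.81 (adjusted p = 0.103 in edgeR), and 0.73 with offset and block together (adjusted p = 0.0184). Its transcript is in the fifth of genes with the highest GC content, whose median log2 difference was 0.36. The log2 ratio of H1f0 to H1fx was 2.69, 1.61 and 1.53 on polyribosomes and 2.84, 2.52 and 3.70 in total RNA, and was lower on polyribosomes in 3 of 3 pairs (mean difference -1.07, ± 1.02 SD over pairs, exact permutation p = 0.2). H1fx overlaps 755 bases of the antisense gene Gm5577.

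**Figure D2:**
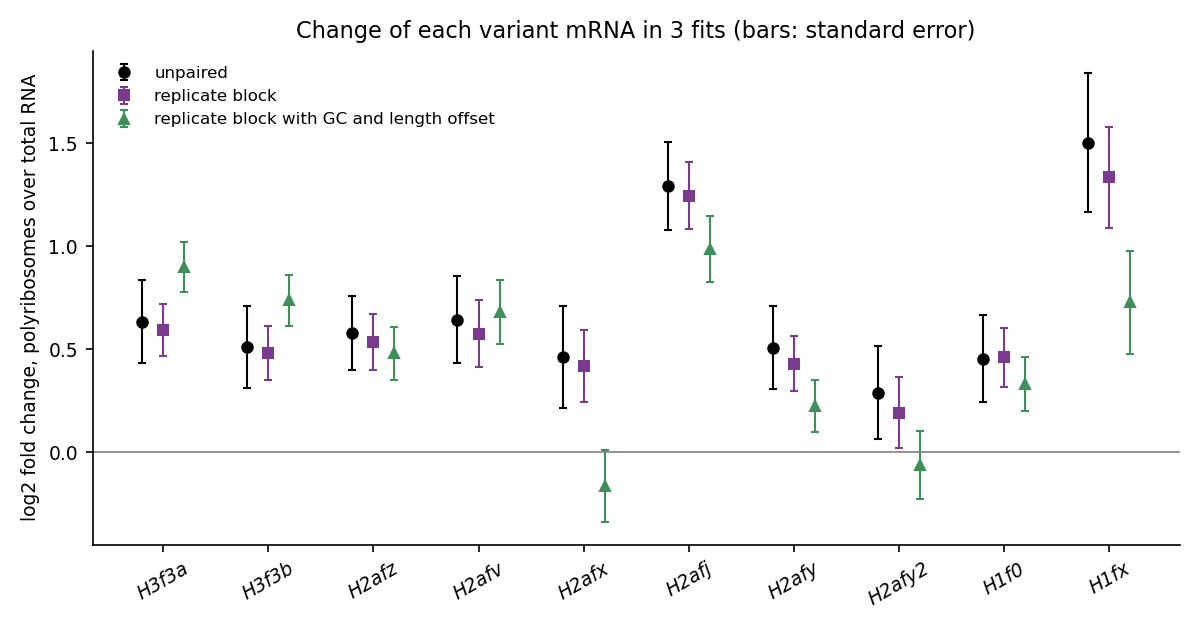
Log2 fold change of each variant mRNA, polyribosomes over total RNA, from the unpaired edgeR fit (black circles), the fit with the preparation as a block (purple squares) and the block plus an offset for transcript GC and length (green triangles). Bars are standard errors. H2afj stays near 1 or above in all 3 fits, the H3.3 genes are higher with the offset, and H2afx and H2afy2 are below 0 with it (-0.17 and -0.061).

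The 4 single-exon members held both the largest and some of the small differences, with 1.50 for H1fx and 1.29 for H2afj against 0.46 for H2afx and 0.45 for H1f0, while the 6 members with several exons lay between 0.29 and 0.64. Among all genes tested, the 308 with a single exon had a median log2 difference of 0.26 (66.6% positive) and the 11930 with more had -0.01 (49.7% positive). GC content moved with the difference across all genes, the medians of 5 equal groups of genes from lowest to highest GC being -0.36, -0.18, -0.02, 0.16 and 0.36. With the offset for GC and length, the median over the 10 members was 0.65, and 0.58 with offset and block.

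**Figure D3:**
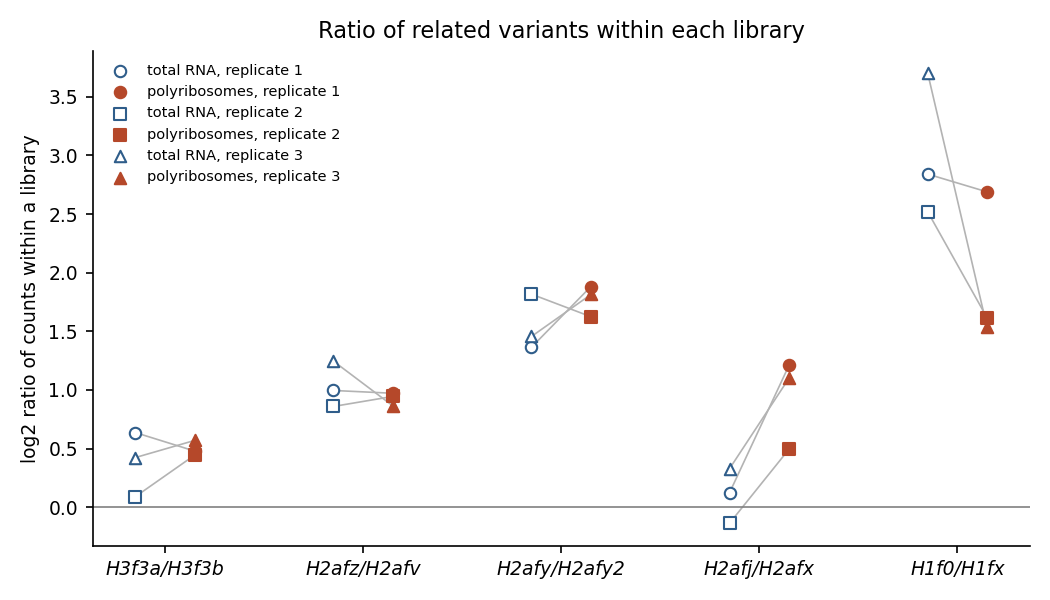
Log2 ratio of counts between related variants within each library, which is free of scaling between libraries. Open blue symbols are total RNA, filled red symbols are polyribosomes, shapes are replicate numbers and grey lines join same-numbered libraries. H2afj over H2afx is the one ratio whose groups do not overlap, and H1f0 over H1fx goes down in each pair.

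Per kilobase of exon, the order of the levels was headed by H2afz in both groups. On polyribosomes H2afz was at 57.3 ± 9.06 CPM per kb (SD, n = 3), followed by H2afy at 38.1 ± 9.75, H3f3a at 36.1 ± 8.67 and H3f3b at 30.3 ± 5.83 CPM per kb. H1f0 at 27.2, H2afj at 23.2, H2afv at 19.8 and H2afx at 16.3 CPM per kb came next, and H1fx at 12.4 and H2afy2 at 11.0 CPM per kb were last. The ranges of all neighbours in this order overlapped. H2afz exceeded H2afy in 3 of 3 libraries, as did H3f3a over H3f3b, H1f0 over H2afj, H2afj over H2afv and H1fx over H2afy2. The other steps held in 2 of 3. In total RNA the order was H2afz at 38.2 ± 2.48 CPM per kb, H2afy at 26.5, H3f3a at 23.6, H3f3b at 21.7, H1f0 at 20.7, H2afv at 12.3, H2afx at 12.1, H2afj at 9.95, H2afy2 at 8.81 and H1fx at 4.11 ± 1.24 CPM per kb. Here the steps from H2afz to H2afy, from H1f0 to H2afv and from H2afy2 to H1fx were free of overlap, and the other neighbours did not differ beyond their spread. H2afj thus stood in place 8 in total RNA and in place 6 on polyribosomes, above H2afv and H2afx.

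The 10 genes took a small share of the counts of protein-coding genes. Their counts summed to 0.0445%, 0.0471% and 0.0576% of the library total on polyribosomes and to 0.0330%, 0.0361% and 0.0375% in total RNA. The widest 95% exact (Clopper-Pearson) interval, for total RNA replicate 3 with 392 of 1044955 counts, ran from 0.0339% to 0.0414% and covers counting error only. The groups did not overlap, with means of 0.0498% ± 0.00695 (SD, n = 3) and 0.0356% ± 0.00229, a ratio of 1.40. The share was higher in 3 of 3 pairs. No p-value is given for it, since the members were chosen with earlier results of these data known.

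Other variant genes were hardly represented. Of 10 further genes (testis and oocyte variants of H1, H2A and H3 and the centromere variant), 7 were in the table, and only Cenpa, the centromeric H3, had any count. Its level was 0.603 to 1.08 CPM on polyribosomes and 0.335 to 1.99 CPM in total RNA, too low to be tested. H1fnt, H1foo, H2afb1, H2afb2, H2afb3 and Hils1 had 0 counts in all 6 libraries, which allows up to 3 counts in a library.

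Of the replication-dependent histone mRNAs that could be tested, nearly all had positive differences and 5 passed the threshold. Of 68 such genes 61 had a count, and only the 27 that passed the filter on low counts were tested. Their median log2 difference was 1.00, with 26 of 27 positive and a range of -0.12 to 2.33, and 5 of 27 were called higher and 0 lower, beside 0.710% and 2.36% of all genes (13 higher and 0 lower with the block, beside 11.8% and 13.2%). Some of the 27 passed the filter only through their polyribosome libraries. Hist1h4b, with the largest value, had 21, 17 and 22 counts there and 2, 3 and 0 in total RNA. The sign count, the median and the top of the range are thus partly set by the filter. The 5 unpaired calls fell to 0 without total RNA replicate 1 or 2, where 2 of 12714 and 0 of 12743 genes tested were called higher. Those called were 4 genes for the core histone H4, with log2 differences of 1.90 for Hist1h4h (adjusted p = 0.00313), 1.64 for Hist1h4i (0.00808), 1.52 for Hist1h4a (0.00804) and 1.50 for Hist1h4d (0.00677), and the H2B gene Hist1h2bc with 1.18 (0.00277, all from edgeR). At an unadjusted p under 0.05 there were 20 higher and 0 lower, beside 15.4% and 17.1% of all genes. H2afj and H1fx thus had values like those of the called clustered genes, whereas the other 8 members were at or below 0.64. The clustered genes are near-identical copies, and reads may be split among them.

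Markers of dividing cells were not higher on polyribosomes. All 8 had counts, their summed level was 8.24 to 11.7 CPM on polyribosomes and 13.4 to 16.4 CPM in total RNA, and of the 2 that could be tested Mki67 was at -0.54 and Top2a at -0.35 (adjusted p = 0.227 and 0.579 in edgeR). Glial and vascular markers were mostly higher on polyribosomes. Positive differences were found for 6 of 6 astrocyte markers (median 0.38, summed level 37053 to 39171 CPM against 30437 to 34150 CPM), 6 of 6 oligodendrocyte markers (0.38, 10261 to 14164 against 7563 to 10680 CPM), 3 of 3 oligodendrocyte precursor markers (0.71, 606 to 728 against 431 to 471 CPM), 8 of 8 microglial markers (0.36, 751 to 893 against 524 to 675 CPM), 4 of 5 endothelial markers (0.24, 231 to 427 against 235 to 259 CPM) and 3 of 3 ependymal and choroid plexus markers (0.65, 483 to 919 against 273 to 491 CPM). For 8 neuronal and synaptic markers the median was -0.01 with 4 positive, and for the 3 tested of 4 erythroid markers it was 0.19 with 3 positive (249 to 1142 against 198 to 874 CPM). No marker of any list was at 0 in all libraries. None of these markers passed the unpaired threshold, and with the block 0 to 3 of each list were called higher and 0 lower, with 3 of 6 astrocyte, 3 of 6 oligodendrocyte and 3 of 8 microglial markers higher, beside 11.8% of all genes called higher and 13.2% called lower. The part of these cell types in the variants' differences was not tested, and in such bulk samples a change in the share of a cell type and a change in RNA per cell cannot be told apart.

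**Figure D4:**
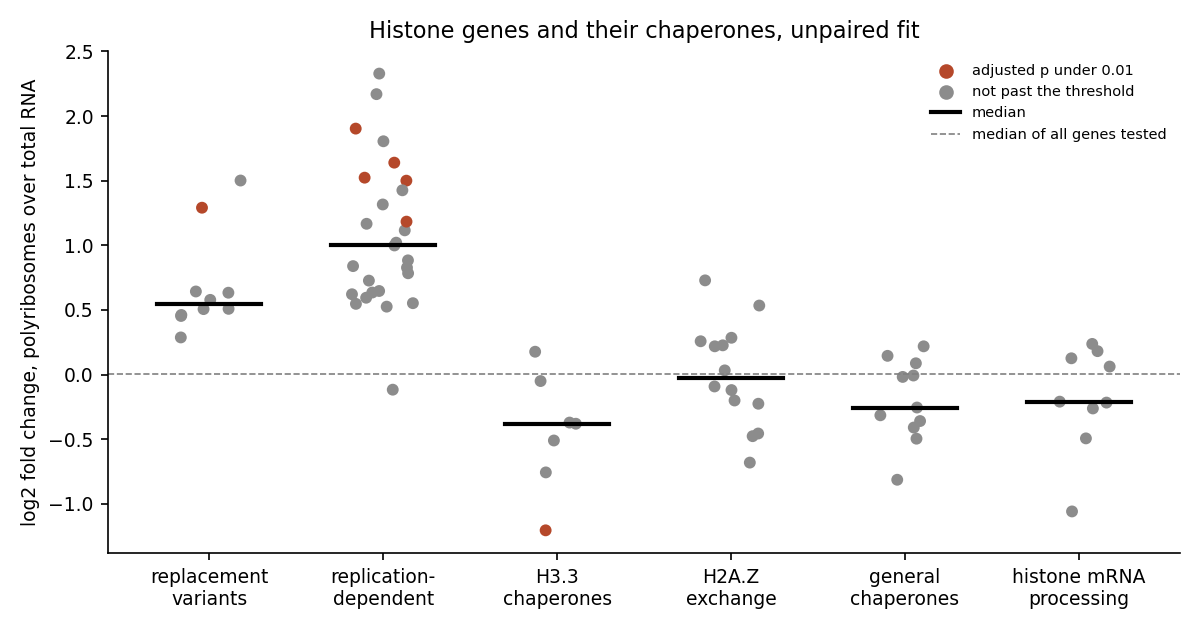
Log2 fold change of each tested gene, polyribosomes over total RNA, for the replacement variants, the replication-dependent histones and genes that deposit, exchange, remove, bind or process them. Red points passed an adjusted p of 0.01 in the unpaired edgeR fit, grey points did not, black bars are medians and the dashed line is the median of all genes tested. Variants and clustered histone genes lie mostly above the line (medians 0.54 and 1.00), and H3.3 chaperones mostly below (median -0.38).

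The mRNAs for proteins that deposit, exchange, remove or bind these variants mostly did not share their direction. Of 34 chaperone and exchange genes (35 entries of the table, as Srcap is listed in 2), 32 were tested, 11 were positive and the median log2 difference was -0.16. One was called lower and 0 higher in edgeR's unpaired test, 7 lower and 0 higher with the block (beside 13.2% and 11.8% of all genes), and at an unadjusted p under 0.05 there were 8 lower and 1 higher (beside 17.1% and 15.4%). The gene called lower was Ubn2, a subunit of the HIRA complex that deposits H3.3, at -1.20 (SE 0.16, adjusted p = 0.00107). With the offset for GC and length in the unpaired fit, 0 chaperone genes were called lower, so this call was lost. That fit called 82 of 12255 genes lower. Among the 7 H3.3 chaperone genes tested the median was -0.38 and 1 was positive. Atrx, the remodeller that acts with DAXX, was at -0.76 (adjusted p = 0.0127, 4.60e-07 with the block), Ubn1 at -0.51 (0.0519, 0.00296 with the block), Hira itself at -0.38 (0.268), Daxx at -0.05 (0.907) and Asf1a, which hands H3 with H4 to HIRA, at 0.18 (0.686), all from edgeR. Thus both H3.3 mRNAs had positive differences while 6 of 7 mRNAs of their chaperones had negative ones, of which only Ubn2 passed the unpaired threshold. Among all genes tested, 6135 of 12255 were positive.

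Of the H2A.Z exchange genes 7 of 14 were positive, with a median of -0.03. With the block 3 of the 14 were called lower and 0 higher, beside 13.2% and 11.8% of all genes tested. The ends of the list were the SRCAP subunits and partners Znhit1 at 0.73 (adjusted p = 0.145 in edgeR) and Ruvbl2 at 0.53 (0.225), and, at the other end, the remodelling ATPase Ino80 at -0.68 (0.0422) and the scaffold protein Trrap at -0.48 (0.0722). The calls with the block were Ino80 (4.50e-04), Trrap (0.00117) and Ep400 (0.00158, at -0.46). Among the 11 tested genes listed as general or macroH2A related, the median was -0.25. Chaf1a at -0.81 (0.212) and Nasp at -0.50 (0.121) were lowest, and Rbbp7 at 0.22 (0.415) and Nap1l4 at 0.15 (0.562) highest, with adjusted p from edgeR. The 9 tested genes for the processing of stem-loop mRNAs had a median of -0.21 with 4 positive and none called in edgeR's unpaired test (1 lower and 0 higher at an unadjusted p under 0.05, beside 17.1% and 15.4% of all genes). Slbp, which binds the stem-loop that H2afx carries, was at 0.13 (0.802). Casp8ap2 at -1.06 (0.0128, 2.21e-05 with the block) and Npat at -0.49 (0.171), both needed for transcription of the clustered genes, were lowest, and Sympk at 0.24 (0.428) and Lsm10 at 0.18 (0.775) were highest.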

How the data were processed

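RNA of 3 preparations of synaptoneurosomes was measured in 6 libraries. The authors depleted ribosomal RNA, mapped reads with STAR 2.5.2b (GRCm38) and deposited raw counts per gene of Gencode vM6 basic. Use of the strand in counting is not given in the sources used here. The table's DESeq2 columns (mean, fold change, standard error, statistic and p-values) were not used.

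Counts were tested with edgeR 4.0.16 (R 4.3.3): TMM scaling, filterByExpr (12255 genes), quasi-likelihood test, group as the only term, Benjamini-Hochberg adjustment over all genes tested and a threshold of 0.01. CPM are TMM-scaled. In the unpaired edgeR fit, p-values rest on the spread between libraries of a group. With the block they rest on the spread left after differences between preparations are taken out. Both cover these preparations only. Ratios used counts plus 0.5. Alternatives were DESeq2 1.42.0, other scalings and filters, a block for replicate number, an offset for transcript GC and length, a threshold of 0.05 and leaving out each library. Leaving out each pair under the block was added after seeing the data. Replicate numbers were taken to pair the libraries, since the table's headers share a label between them, the methods split each preparation, and deviations of same-numbered libraries from the group means correlated across genes (r = 0.37, 0.26 and 0.38).

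Gene models and sequences came from Gencode vM21, of the same build. Named were all members, of each list the genes past the threshold or otherwise those at its ends, and variant genes with a count. Atrx, Ubn1, Hira, Daxx, Asf1a, Ep400 and Slbp were named after their values were seen. Members and lists were chosen with earlier results of these data known.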

Additional observations from a re-analysis of the deposited data

How the results depend on the processing

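The median log2 difference of the members stayed between 0.43 (library totals in place of TMM) and 0.68 (without polyribosome replicate 1). The number of members called higher was 1, and 2 with DESeq2 or without the filter on low counts (H2afj and H1fx), 4 at the looser threshold of 0.05, 8 under the replicate block and 5 with the block and the GC and length offset. It was 0 to 2 when 1 library was left out, being 0 without polyribosome replicate 2, total RNA replicate 1 or total RNA replicate 2. In those fits 11 of 12310, 2 of 12714 and 0 of 12743 genes tested were called higher, beside 87 of 12255 with all libraries. With the block it was 4 without pair 1, 2 without pair 2 and 6 without pair 3, beside 627 of 12176, 518 of 12365 and 1470 of 12539 genes tested. The sign reversed for H2afx (-0.17 with the offset and -0.17 with offset and block) and H2afy2 (-0.061 with offset and block). Replication-dependent genes called higher, 5 at first, were 9 without the filter, 13 with the block, 3 with the offset, 12 with offset and block, 11 at an adjusted p under 0.05 and 0 to 5 without 1 library, being 0 without total RNA replicate 1 or 2, 1 without polyribosome replicate 2 and 3 without polyribosome replicate 3. Of all genes tested, 87 of 12255 were called higher at first, 476 of 16736 without the filter and 321 of 16736 with DESeq2. Of 12255 genes, 1441 were called higher with the block, 27 with the offset and 1142 with both. At an adjusted p under 0.05 it was 799 of 12255, and without polyribosome replicate 3 it was 42 of 12270. Chaperone genes called lower, 1 at first, were 2 with DESeq2, library totals or no filter, 7 with the block, 0 with the offset, 5 with offset and block and 3 at an adjusted p under 0.05. Of all genes tested, 289 of 12255 were called lower at first, 372 of 16736 with DESeq2 and 566 of 16736 without the filter. Of 12255 genes, 366 were called lower with library totals, 1622 with the block, 82 with the offset and 860 with block and offset. At an adjusted p under 0.05 it was 1085 of 12255. Among stem-loop processing genes 1 was called lower with library totals, no filter, the block or an adjusted p under 0.05. The cause of these changes was not tested. H1fx could not be tested when 10 counts were required in every library. Depth limits H1fx most, since 1 count in total RNA replicate 3 is worth 0.959 CPM. Library totals shifted the median of all genes by -0.11.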
